A study of Mus musculus with 25 samples.

Results

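The Hedgehog pathway genes described here were 9 in number, chosen by name out of 20665 autosomal protein-coding genes, namely the ligands Shh, Ihh and Dhh, the membrane proteins Ptch1, Smo and Hhip, and the transcription factors Gli1, Gli2 and Gli3. The study profiled H3K27me3, a histone modification written by the Polycomb complex PRC2 and found over silenced developmental genes, in neural progenitor cells (NPC) derived from mouse embryonic stem cells and in lines A and B of mouse embryonic fibroblasts (MEF) immortalized with c-myc. NPC gave 6 libraries by CUT&RUN, in which an antibody guides a nuclease to the marked chromatin of permeabilized cells, all with a wild-type genotype. Of these, 2 came from cells given UNC1999 (2 uM) together with A395 (4 uM), which inhibit PRC2, 2 from cells after washout of both compounds and 2 from untreated cells. Each MEF line gave 6 libraries by ChIP-seq, 2 each of cells labelled Ezh2 -/-, of cells with Ezh2 restored and of wild-type cells. Ezh2 is the methyltransferase of PRC2. The rescue of line A used retroviral pMSCV-Ezh2, whereas line B carried an endogenous rescue of an Ezh2 -/- genotype that the labels call reversible. Each MEF line is a single immortalized line. A further 7 libraries of line A, whose genotype label reads Ezh2 -/- while their titles name EZH2, served as input or profiled RNA polymerase II and other histone marks, and were not used here.

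The files held 3 lists of peak positions, 1 for each cell system, with no peak heights and no values per library. The lists do not separate untreated, inhibited, washed-out, Ezh2 -/- and rescued cells, so each value below belongs to a cell system and not to a condition. No replicate value exists, so no difference between lists could be tested. In NPC 44807 peaks covered 136.9 Mb, in line A 86235 peaks covered 276.2 Mb, and in line B 81972 peaks covered 235.7 Mb. NPC also differed from the MEF lines in assay, which cannot be told apart from the cell type. A stretch without a peak is one where the authors' calling found none, and the mark may still be present there. Of 12 neural progenitor marker genes, 2 had a peak at a start site in NPC (16.7%), against 7 in line A (58.3%) and 8 in line B (66.7%), where the shares of all genes were 15.3%, 21.5% and 22.6%. Of 12 fibroblast marker genes, 2 had one in NPC and 0 in line A and line B. Of 6 endothelial or blood markers, 2, 4 and 4 had one in NPC, line A and line B, and of 3 pluripotency markers 0, 1 and 0. The lists hold no expression values, and depth is unknown. Positions are in the mouse build mm10.

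Hedgehog ligands are secreted proteins that pattern embryonic tissue. A ligand binds the receptor Ptch1, which releases Smo, a membrane protein that Ptch1 otherwise holds inactive, and Smo signals at the primary cilium to the Gli zinc finger factors. In the absence of ligand, Gli3 is processed to a repressor, while Gli2 is a main activator once the pathway is on. Ptch1, Hhip and Gli1 are themselves switched on by the pathway, so that Ptch1 and Hhip limit it and Gli1 strengthens it. In the developing neural tube, Shh from the notochord and floor plate sets the identity of ventral progenitors, and in limb and skeletal mesenchyme the ligands signal to fibroblast-like cells.

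Promoter sequences were in the RefSeq promoter table for 7 of the 9 genes (build GRCm38.p6, the assembly of mm10). Each entry spans 300 bases, from 250 before the listed start site to 50 after it, and covers Ihh, Dhh, Ptch1, Smo, Hhip, Gli2 and Gli3. Of these promoters, NPC peaks touched 2 (Ihh and Hhip), line A peaks 2 (Ihh and Dhh) and line B peaks 3 (Ihh, Dhh and Hhip). Among 20085 promoters of autosomal protein-coding genes, 9.97% were touched by an NPC peak, 13.3% by a line A peak and 14.6% by a line B peak. The following 4 are shown because they cover the range seen, from a promoter covered over all its 300 bases in each list (Ihh) through promoters covered in the MEF lines alone (Dhh) or in NPC and line B (Hhip) to a promoter with 0 covered bases in each list (Gli3). Each is given 5′ to 3′ on the strand of the gene, with every CpG dinucleotide in capitals. The Ihh promoter lies at chr1:74951623-74951922 on the minus strand, the Dhh promoter at chr15:98898491-98898790 on the minus strand, the Hhip promoter at chr8:80057959-80058258 on the minus strand and the Gli3 promoter at chr13:15463473-15463772 on the plus strand.
Ihh: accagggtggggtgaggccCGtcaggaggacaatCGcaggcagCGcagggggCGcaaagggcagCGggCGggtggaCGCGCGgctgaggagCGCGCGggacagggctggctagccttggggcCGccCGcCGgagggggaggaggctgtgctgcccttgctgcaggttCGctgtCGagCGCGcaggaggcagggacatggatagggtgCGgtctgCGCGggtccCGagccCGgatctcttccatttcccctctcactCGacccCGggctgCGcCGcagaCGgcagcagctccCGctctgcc
Dhh: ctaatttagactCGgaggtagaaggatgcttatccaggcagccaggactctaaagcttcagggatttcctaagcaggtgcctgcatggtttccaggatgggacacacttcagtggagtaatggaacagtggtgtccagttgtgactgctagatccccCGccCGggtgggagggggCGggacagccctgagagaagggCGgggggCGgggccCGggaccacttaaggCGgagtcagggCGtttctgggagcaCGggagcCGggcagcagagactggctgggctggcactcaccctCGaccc
Hhip: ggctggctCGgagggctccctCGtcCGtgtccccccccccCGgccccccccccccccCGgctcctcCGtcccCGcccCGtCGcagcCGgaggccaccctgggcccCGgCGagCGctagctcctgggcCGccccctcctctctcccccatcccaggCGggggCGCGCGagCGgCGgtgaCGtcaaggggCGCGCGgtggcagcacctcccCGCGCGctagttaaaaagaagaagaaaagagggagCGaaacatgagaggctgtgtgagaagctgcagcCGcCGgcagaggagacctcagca
Gli3: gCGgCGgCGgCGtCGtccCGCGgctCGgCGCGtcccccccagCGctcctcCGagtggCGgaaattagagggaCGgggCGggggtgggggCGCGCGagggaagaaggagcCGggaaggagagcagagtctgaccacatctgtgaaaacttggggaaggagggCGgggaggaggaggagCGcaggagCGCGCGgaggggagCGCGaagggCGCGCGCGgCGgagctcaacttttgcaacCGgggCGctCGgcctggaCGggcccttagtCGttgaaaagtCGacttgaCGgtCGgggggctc

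The Ihh and Hhip promoters held 30 CpG dinucleotides each, the Gli3 promoter 39 and the Dhh promoter 12, where the median of all promoters was 14. The observed over expected CpG ratio was 1.12 at Gli3, 1.09 at Ptch1, 0.830 at Gli2, 0.774 at Ihh, 0.747 at Hhip, 0.504 at Smo and 0.438 at Dhh, against a median of 0.586. The Gli3 and Ptch1 promoters had the highest ratios and 0 covered bases of their 300 in each list. The Dhh promoter had the lowest ratio and was covered over 300 bases in line A and line B. The Smo promoter had the next lowest ratio and 0 covered bases in each list. Of all promoters with a ratio of at least 0.6, peaks touched 9.06% in NPC, 8.27% in line A and 10.6% in line B. Of those under 0.6 they touched 10.8%, 18.1% and 18.3%. Whether CpG content bears on coverage was not tested. The Gli-binding motif TGGGTGGTC was searched on both strands. It stood in 0 of the 7 promoters and in 35 of 20085 promoters (0.174%).

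H3K27me3 peaks lay most densely over the ligand genes Shh and Ihh. Coverage is given as the part of a window (the gene record and 5 kb on each side) that lies under a peak. It was at most 6.92% at Smo, Ptch1, Gli2 and Gli3 in each list, a value reached by Gli2 in NPC. Dhh in NPC (2.22%) and Hhip in line A (1.93%) were also low. At least 1 bp of the window was covered at 8 of 9 genes in NPC, 6 of 9 in line A and 8 of 9 in line B, where 31.9%, 40.2% and 40.9% of all autosomal protein-coding genes were. At least 50% of the window was covered at 2 of 9 genes in each list, against 3.91% of all genes in NPC, 9.98% in line A and 9.71% in line B. In every list the 2 genes were Shh and Ihh. The median window of the 9 genes was covered by 6.92% in NPC, 1.93% in line A and 25.0% in line B, while the median over all genes was 0% in each list. Summed, the 9 windows were covered over 7.30% in NPC, 4.99% in line A and 12.7% in line B. The mean of the percent covered over all genes was 6.43%, 12.0% and 11.6%. The sum gives long windows more weight, which that mean does not.

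**Figure D1:**
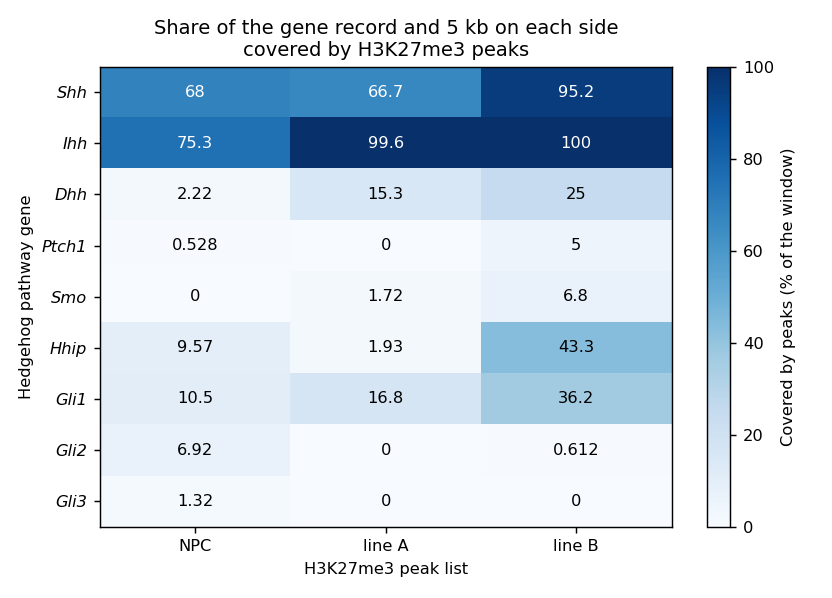
Percent of each window (the gene record and 5 kb on each side) covered by H3K27me3 peaks, with the 9 genes as rows and the NPC, line A and line B peak lists as columns, and with the value printed in each cell on a colour scale of 0 to 100%. Shh and Ihh lie between 66.7% and 100%, and the other 7 genes at 43.3% or less.

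Long genes meet a peak more easily, and the windows here ran from 16.4 kb (Ihh) to 276.3 kb (Gli3). A window under 20 kb was touched by a peak at 27.6% of all genes in NPC, 33.7% in line A and 34.1% in line B. The only such window was that of Ihh, which was touched in each list. Windows of 20 to 60 kb were touched at 30.8% of all genes in NPC, 41.3% in line A and 41.5% in line B. Of Shh, Dhh, Smo and Gli1, whose windows fall in this range, Smo alone had no peak in NPC, and all 4 had a peak in line A and line B. Windows over 60 kb were touched at 40.7%, 48.4% and 50.6% of all genes in NPC, line A and line B. Of Ptch1, Hhip, Gli2 and Gli3, all 4 were touched in NPC, only Hhip in line A, and all but Gli3 in line B. A peak in all 3 lists was found at 5 of the 9 genes (Shh, Ihh, Dhh, Hhip and Gli1), against 19.5% of all genes. No gene of the 9 lacked a peak in every list, which 44.8% of all genes did. Shh and Ihh were covered over at least 50% of their windows in all 3 lists, as were 1.39% of all genes.

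At start sites, a peak lay within 1 kb at 6 of the 9 genes in NPC (Shh, Ihh, Dhh, Hhip, Gli2 and Gli3) and at 5 in both line A and line B (Shh, Ihh, Dhh, Hhip and Gli1). Over all genes the shares were 15.3% in NPC, 21.5% in line A and 22.6% in line B. For Shh and Gli1 no start site was listed, and a peak within 1 kb of either end of the record was counted. At Gli1 the line A peak lay by the low-coordinate end alone, 0.334 kb outside the record and within the neighbouring gene Arhgap9. Which end of Gli1 holds its start is not listed, so Gli1 may not belong in the line A count.

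Shh, the ligand of the notochord, floor plate and limb bud, was covered over the whole of its short record in NPC and line B. Its record lies on chromosome 5 (28456840 to 28467101, NCBI gene 20423) and its window spans 20.3 kb. Peaks covered 13.8 kb of that window in NPC (68.0%), 13.5 kb in line A (66.7%) and 19.3 kb in line B (95.2%). NPC and line A thus differed by 1.35 percentage points and line B lay 28.6 points above line A. In NPC the cover was a single peak of 13.8 kb (28456147 to 28469929), wider than all but 2.98% of the NPC peaks. In line B it was a single peak of 19.3 kb (28452273 to 28471567), as wide as the widest 1.87% of that list. Line A had a main peak of 12.5 kb (28458415 to 28470917), a 910 bp peak over the low-coordinate end of the record and the edge of a peak in the flank. The same DNA was involved in each system. Line B peaks covered 100% of the NPC-covered bases and 99.3% of the line A-covered bases, and NPC and line A shared 12.4 kb, or 90.1% of the NPC cover and 92.0% of the line A cover.

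Beyond Shh the 2 sides differed. The 37.6 kb on the low-coordinate side, as far as Rbm33, was covered over 1.84% in NPC, 33.0% in line A and 45.5% in line B. Rbm33 itself was covered over 0%, 1.26% and 0% of its window in NPC, line A and line B. On the other side 725.6 kb without a protein-coding record separates Shh from Rnf32, a stretch known to hold long-range Shh enhancers. Peaks covered 2.05% of that stretch in NPC, 7.90% in line A and 6.97% in line B, where the autosomes as a whole were covered over 5.64%, 11.4% and 9.70%. Rnf32 itself was covered over 0%, 4.36% and 0% of its window.

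Ihh, the ligand that governs cartilage growth in long bones, had the most covered window of the 9 genes in each list, although in NPC the record alone was covered less than that of Shh (59.1% against 100%). Its record lies on chromosome 1 (74945315 to 74951672, gene 16147) and its window spans 16.4 kb. Of this window, 12.3 kb was covered in NPC (75.3%), 16.3 kb in line A (99.6%) and 16.4 kb in line B (100%). The difference was -24.3 points for NPC minus line A and -24.7 points for NPC minus line B. The NPC cover was broken inside the gene. There a 13.9 kb peak (74947914 to 74961852) ran over the start site and the upstream flank, a 618 bp peak and a 15.3 kb peak lay beyond the other end of the record, and part of the record was bare. Line A had a single 21.6 kb peak (74940376 to 74961969) and line B a single 43.4 kb peak (74919376 to 74962781), a width that 0.343% of line B peaks reached.

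Unlike the block at Shh, that at Ihh ran on into the neighbouring gene. With peaks less than 3 kb apart joined, it measured 43.6 kb in NPC, 47.9 kb in line A and 129.2 kb in line B. Cfap65, a gene of the flagellar axoneme 9.69 kb away, had a peak at a start site in each list, and 68.7% of its window was covered in NPC, 59.0% in line A and 98.2% in line B. On the other side Nhej1, a gene of DNA end joining 15.7 kb away, was covered over 6.57%, 1.81% and 11.3% of its window and had no peak at a start site.

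Dhh, the ligand of Sertoli and Schwann cells, differed from the other ligands in that peaks lay over its start alone. Its record lies on chromosome 15 (98881615 to 98898562, gene 13363) and its window spans 26.9 kb. NPC had 1 peak of 598 bp (98897826 to 98898423), which ended 117 bp inside the gene from the start site. Line A had 1 peak of 4.12 kb (98895640 to 98899762) and line B 1 peak of 6.73 kb (98892874 to 98899607), both across the start site. Coverage was therefore 2.22% of the window in NPC, 15.3% in line A and 25.0% in line B. The peaks were nested, as both MEF lines covered all of the NPC peak and line B covered 96.2% of the line A peak. NPC peaks of 598 bp or more made up 80.0% of that list, so this one was among the narrow ones. Rhebl1, whose record ends 0.117 kb from Dhh, was covered over 0% in each list.

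**Figure D2:**
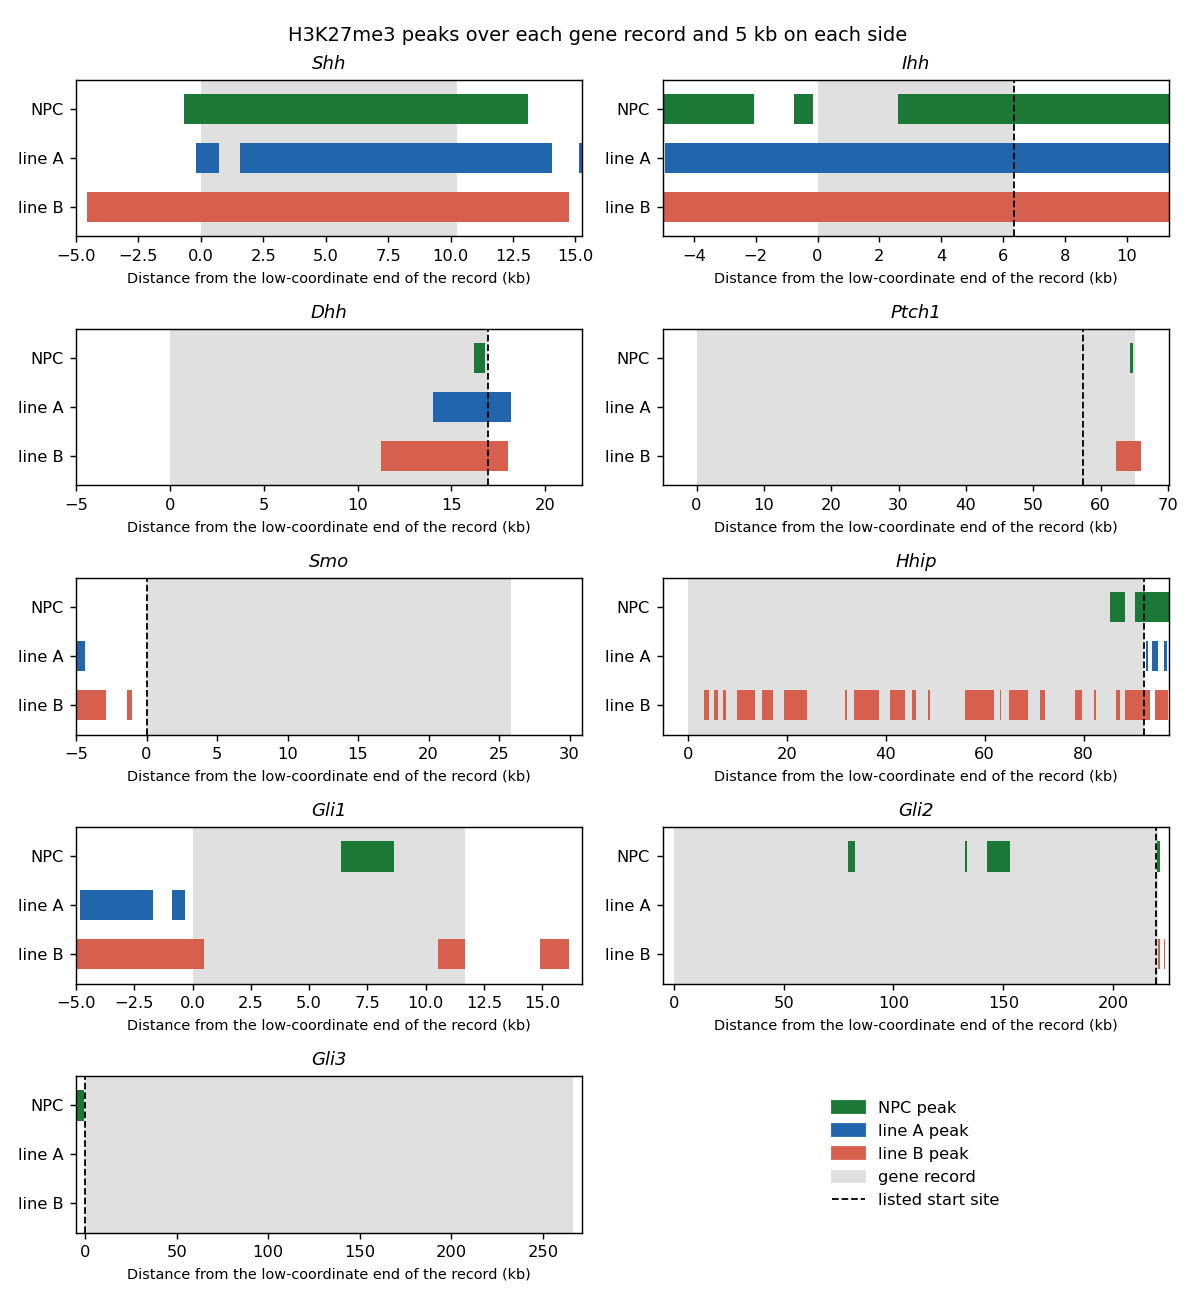
H3K27me3 peaks at each of the 9 genes, with the distance from the low-coordinate end of the gene record in kb on the horizontal axis (each panel on its own scale) and rows for NPC, line A and line B. Grey marks the record, the dashed line marks the listed start site (not listed for Shh and Gli1), and panels end 5 kb beyond the record. Peaks cover between 66.7% and 100% of the Shh and Ihh panels, those at Dhh lie by its start, and in line A the records of Ptch1, Smo, Hhip, Gli1, Gli2 and Gli3 hold no peak.

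Ptch1, the receptor, was nearly free of peaks. Its record lies on chromosome 13 (63508328 to 63573460, gene 19206). Of its 75.1 kb window, 0.397 kb was covered in NPC (0.528%), 0 kb in line A and 3.76 kb in line B (5.0%). In line A the record lay in an uncovered stretch of 91.0 kb. The NPC peak (63572744 to 63573140) and the line B peak (63570603 to 63574357) both lay near the high-coordinate end of the record, which is the 5′ side, and the NPC peak was contained in the line B peak. They lay 7009 and 4868 bp upstream of the listed start site, so neither counted as a peak at the start. Both lay within 1 kb of the 5′ end of the record, and the line B peak ran across it. The rule used for Shh and Gli1, which had no listed start site, would have counted both. The uncovered surroundings were wide, as within 250 kb of the record peaks covered 0.516% in NPC, 1.59% in line A and 1.99% in line B, against means over all genes of 6.81%, 15.0% and 13.7%.

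Smo, the signal transducer, had no peak over its record in any of the 3 lists. It lies on chromosome 6 (29735497 to 29761366, gene 319757). Its 35.9 kb window was covered over 0 kb in NPC, 0.618 kb in line A (1.72%) and 2.44 kb in line B (6.80%), all of it upstream. The nearest peak upstream of the start site lay 4383 bp away in line A and 1049 bp away in line B. The uncovered stretch around Smo measured 477.6 kb in NPC, 186.7 kb in line A and 180.3 kb in line B. Upstream of it stands Tspan33, a tetraspanin gene 16.9 kb away, which had a peak at a start site in each list and was covered over 9.98%, 15.7% and 38.6% of its window in NPC, line A and line B.

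Hhip, which encodes a membrane protein that binds and sequesters the ligands, differed most between the lists of these 3 membrane protein genes. Its record lies on chromosome 8 (79965850 to 80058060, gene 15245) and its window spans 102.2 kb. Of this window 9.78 kb was covered in NPC (9.57%), 1.98 kb in line A (1.93%) and 44.2 kb in line B (43.3%). Line A thus lay 41.3 points below line B, the widest gap between the MEF lines among the 9 genes, and NPC lay 33.7 points below line B. The NPC cover consisted of a 7.95 kb peak across the start site (80056261 to 80064209) and a 2.98 kb peak within the record. Line B had 20 peaks, spread along 43.8% of the record and into the upstream flank, among them a 5.18 kb peak across the start site (80054118 to 80059294). Line A had 3 peaks of 331 to 1118 bp, all upstream, the nearest 529 bp from the start site.

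Around Hhip the order of the fibroblast lines turned. The 188.5 kb between Hhip and Anapc10 was covered over 4.97% in NPC, 71.0% in line A and 59.4% in line B. In line A the uncovered stretch that held the Hhip record measured 107.1 kb and began 14.4 kb beyond the record's low-coordinate end. The 250 kb beyond the other end of the record, on the start-site side, was covered over 11.2% in NPC, 71.5% in line A and 7.01% in line B. Line A peaks were thus dense on both sides of Hhip and missing over the gene, while line B peaks ran over the gene and the low-coordinate side. Within 250 kb of the record, both sides included, coverage was 7.12% in NPC, 52.8% in line A and 28.7% in line B.

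**Figure D3:**
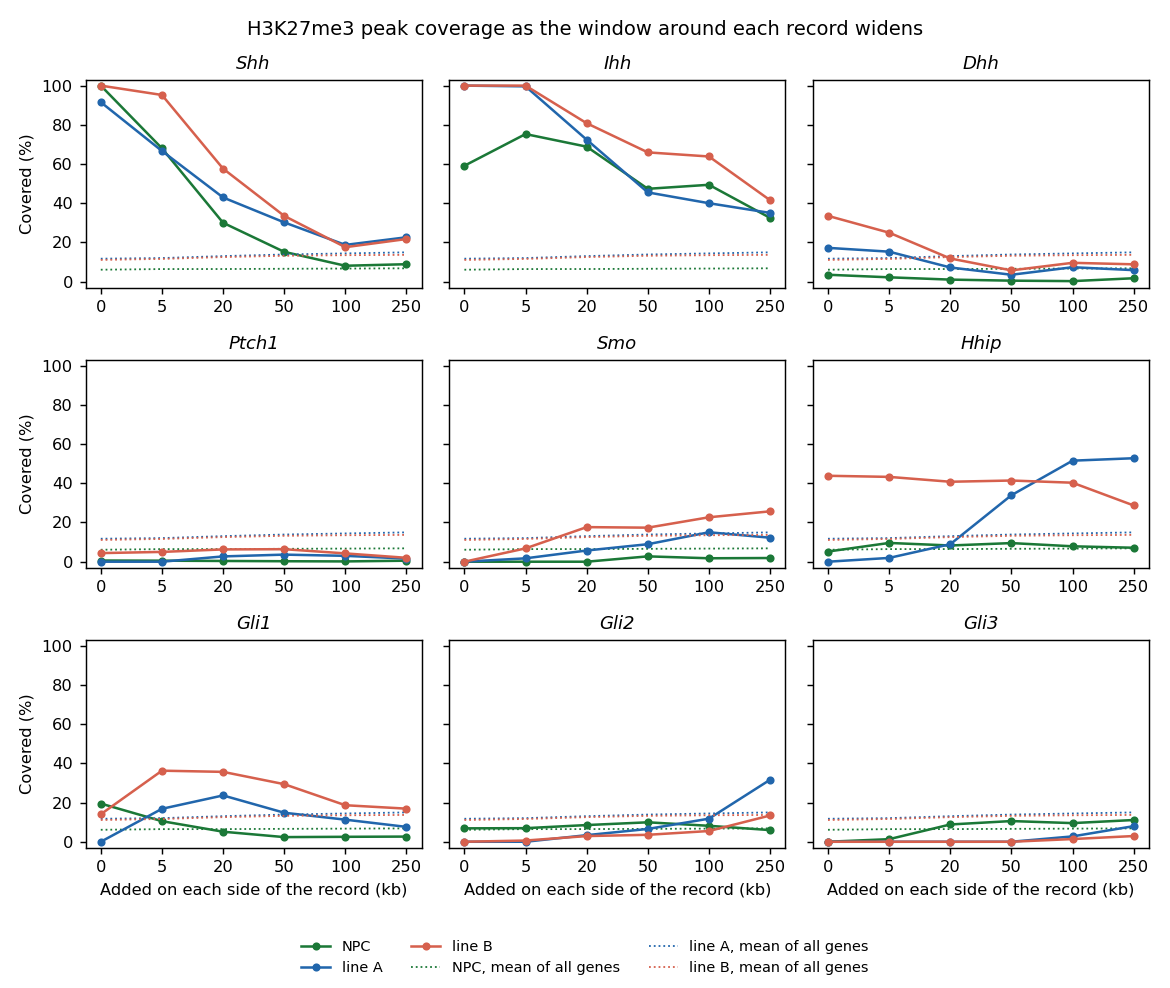
Percent covered by H3K27me3 peaks (vertical axis) as 0, 5, 20, 50, 100 and 250 kb are added on each side of the record (horizontal axis, evenly spaced steps and not to scale), with 1 panel for each of the 9 genes. Solid lines with points are the gene in NPC, line A and line B, and dotted lines are the mean over all autosomal protein-coding genes in the same list. Coverage at Shh drops to between 8.11% and 18.7% at 100 kb and lies between 8.91% and 22.6% at 250 kb, that at Ihh stays at 32.5% or more, and that at Hhip in line A climbs from 0% of the record to 52.8% at 250 kb.

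Gli1, a pathway target and activator, carried peaks in each list, at different places in NPC and in the MEF lines. Its record lies on chromosome 10 (127329882 to 127341579, gene 14632). The 21.7 kb window was covered over 2.28 kb in NPC (10.5%), 3.65 kb in line A (16.8%) and 7.87 kb in line B (36.2%). The NPC cover was 1 peak inside the record (127336262 to 127338539), and it shared 0 bp with line A or line B. In line A both peaks lay in the low-coordinate flank, which overlaps Arhgap9, a gene known from blood cells. Line B covered all of the line A bases there with a 9.63 kb peak, and had a 1.17 kb peak inside the high-coordinate end of the record (127340405 to 127341572) and a 1.23 kb peak beyond it. Arhgap9 was covered over 0%, 41.1% and 53.4% of its own window in NPC, line A and line B, so the flank cover in the MEF lines cannot be assigned to Gli1.

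Gli2, a main activator, carried most of its cover in NPC. Its record lies on chromosome 1 (118834061 to 119054405, gene 14633) and its window spans 230.3 kb. NPC peaks covered 15.9 kb (6.92%), line A peaks 0 kb and line B peaks 1.41 kb (0.612%). The NPC cover held 5 peaks. The widest, of 10.2 kb (118976659 to 118986884), lay inside the record 66735 bp from the listed start site, and a 1.03 kb peak (119054252 to 119055283) spanned the upstream end of the record. Line B had 2 peaks of 885 and 524 bp, both upstream, and in line A the record lay in an uncovered stretch of 251.7 kb. In line A this bare stretch stood between covered genes. Tfcp2l1, a pluripotency factor gene on one side, and Inhbb, an activin subunit gene on the other, were covered over 74.2% and 87.9% of their windows in line A, against 6.35% and 0% in NPC, and 7.38% and 32.8% in line B.

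Gli3, which gives rise to the main repressor of the pathway, had no peak inside its record in any of the 3 lists. The record lies on chromosome 13 (15463723 to 15730026, gene 14634), and its window of 276.3 kb was the longest of the 9. It was covered over 3.65 kb in NPC (1.32%) and 0 kb in line A and line B. The NPC cover was 1 peak (15459463 to 15463111) that ended 612 bp before the start site and joined with others upstream into a 14.9 kb region. The uncovered stretch around the record was 271.9 kb long in NPC, 498.3 kb in line A and 1127 kb in line B. Within 100 kb of the record coverage was 9.50% in NPC, 2.73% in line A and 1.38% in line B. Inhba, an activin subunit gene on the far side, was covered over 0% of its window in each list.

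Across the 9 genes the 3 lists thus ordered differently by gene. Line B had the highest coverage at 7 genes (Shh, Ihh, Dhh, Ptch1, Smo, Hhip and Gli1) and NPC at 2 (Gli2 and Gli3). Line A was the lowest of the 3 at Shh, Ptch1, Hhip, Gli2 and Gli3, where at Gli3 it shared a value of 0 with line B, and NPC was the lowest at Ihh, Dhh, Smo and Gli1. How often each list is highest or lowest over all genes is not given here, so these counts may not be particular to the 9 genes. The order depends on the window. With the record alone, Gli1 was highest in NPC, at 19.5% against 0% in line A and 14.0% in line B, Smo had 0% in each list, Shh stood at 100% in both NPC and line B, and Ihh at 100% in both line A and line B. With 20 kb added on each side, NPC was the lowest of the 3 at Shh (30.0%, against 42.9% in line A), at Ptch1 (0.378%, against 2.70%) and at Hhip (8.27%, against 8.93%), and line B was the lowest at Gli2 (2.90%, against 3.36% in line A). The gaps at Ptch1, Smo and Gli3 were at most 6.80 points in size, and that of NPC and line A at Shh was 1.35 points. How large a gap would arise between replicate lists is unknown.

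Genes outside the 9 that matched them in coverage over the 3 lists shared a profile of 3 values and nothing else was compared. The nearest to Shh by Euclidean distance in percentage points was the pheromone receptor gene Vmn2r8 (distance 7.55), followed by Cfap65 (8.31) and Bpifa2 (8.54). Those nearest to Ihh were Tpsb2 (4.30), Vmn1r54 (5.39) and Foxd4 (6.53). For Dhh they were Slc4a3, Ankrd7 and Pkhd1, between 1.54 and 1.88 points away, for Hhip Spinkl, Cd38 and Vmn1r32 (1.08 to 4.71), and for Gli1 Phf11b, Tspan33 and Stk32b (2.62 to 2.74).

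Among 61 other genes tied to the pathway, the share with a start-site peak was lowest at the genes of the intracellular relay. It was higher at those that release the ligand. Among those that answer to the ligand it varied, and in NPC the genes that Shh holds down stood at 14.3%, near the 15.3% of all genes. Of 23 intracellular and cilium genes, which include the Gli regulators Sufu and Kif7 and the protein kinase A subunit gene Prkaca, 1 had a peak at a start site in NPC, 0 in line A and 1 in line B. Sufu, Prkaca and the orphan receptor gene Gpr161 had 0% in each list. The counts are 4.35%, 0% and 4.35% of the group, beside 15.3%, 21.5% and 22.6% of all genes. A peak anywhere in the window was found at 4 of the 23 genes in NPC, 8 in line A and 8 in line B. Of all genes 31.9%, 40.2% and 40.9% had one.

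Of 7 genes of ligand processing and release, 5 had a peak at a start site in NPC, 4 in line A and 4 in line B. As shares these were 71.4%, 57.1% and 57.1%, against 15.3%, 21.5% and 22.6% of all genes. Scube2, which helps to release the lipid-bearing ligand from cells, was covered over 80.9% of its window in NPC, 68.4% in line A and 34.3% in line B. Disp2, a relative of the ligand-releasing protein Disp1, was covered over 16.3%, 64.5% and 53.8%, and Scube1 over 14.7%, 61.3% and 23.4%. Scube3 was covered over 51.7% in NPC and 0% in line A and line B, while Disp1 itself was at 0% in each list. Of 5 genes of reception at the membrane, 1 had a peak at a start site in NPC, 1 in line A and 2 in line B. As shares these were 20%, 20% and 40%, beside the same shares of all genes. The co-receptor genes Boc and Gas1 had 0% in each list.

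Neural tube genes downstream of Shh stood under peaks in the MEF lines more than in NPC, whose list also covers the least DNA. Of 7 genes that Shh induces in ventral progenitors, 2 had a peak at a start site in NPC, 6 in line A and 7 in line B. As shares these were 28.6%, 85.7% and 100%, against 15.3%, 21.5% and 22.6% of all genes. Foxa2 of the floor plate and Olig2 of motor neuron progenitors were covered over 0% of their windows in NPC and 100% in line A and line B. Nkx2-1 of the ventral forebrain was covered over 100%, 91.9% and 100% and Nkx6-1 of the ventral neural tube over 74.3%, 84.1% and 81.8% in NPC, line A and line B, so these 2 were covered in all 3 systems. Of 7 genes that Shh holds down, 1 had a peak at a start site in NPC, 5 in line A and 5 in line B. As shares these were 14.3%, 71.4% and 71.4%, so that the NPC share was near the 15.3% of all genes. Pax6, a progenitor factor, was covered over 0%, 68.2% and 74.3%, and Dbx1, of intermediate progenitors, over 20.9%, 71.1% and 76.5%. Pax3 was covered over 77.8% in NPC, 93.4% in line A and 10.7% in line B. Msx1 was covered over 6.70%, 100% and 5.6%.

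Of 12 targets in mesenchyme and growth, 8 had a peak at a start site in NPC, 10 in line A and 7 in line B. As shares these were 66.7%, 83.3% and 58.3%, against 15.3%, 21.5% and 22.6% of all genes. Pax1 of the vertebral precursors was covered over 94.2%, 96.6% and 100% of its window, and Foxf1 of gut and lung mesenchyme over 43.2%, 95% and 100%. Nkx3-2, a cartilage factor, was covered over 0% in NPC, 87.9% in line A and 67.4% in line B. Mycn, a growth regulator of neural progenitors, was covered over 80.2% in NPC, 64.1% in line A and 8.42% in line B. Over all 61 genes, 18 had a peak at a start site in NPC (29.5%), 26 in line A (42.6%) and 26 in line B (42.6%).

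**Figure D4:**
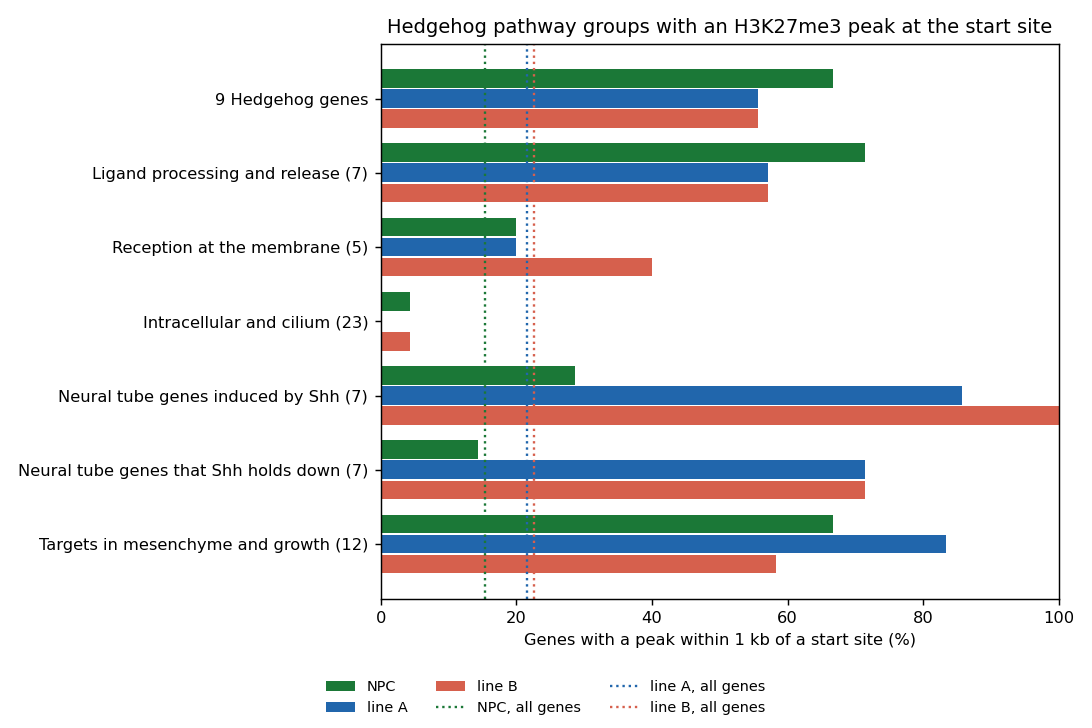
Percent of genes with an H3K27me3 peak within 1 kb of a start site (horizontal axis), for the 9 Hedgehog genes and 6 groups of related genes (number of genes in brackets), with bars for NPC, line A and line B. Dotted lines mark the share of all autosomal protein-coding genes in each list, 15.3% in NPC, 21.5% in line A and 22.6% in line B. The group of 23 intracellular and cilium genes has 1, 0 and 1 genes with a peak in NPC, line A and line B. The line A bar of the 9 Hedgehog genes counts Gli1 by a peak at the low-coordinate end of its record, which may not be its start.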

How the data were processed

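Peaks of H3K27me3 were deposited as 3 lists for the series as a whole, each of 3 columns (chromosome, start and end) with no header, height or p-value, so the values used were positions in bp, as deposited by the authors. The submitters' processing notes name MACS2 2.1.1.20160309, Bowtie2 2.2.9, deepTools, DESeq2 and Picard, besides builds dm6 and mm10, without saying what each was used for. No source used here gives the calling threshold, the control or which libraries entered a list. A MEF list is named after the wild-type and Ezh2 -/- libraries of its line, and the NPC list gives no treatment. The submitters corrected the labels of some NPC libraries after deposit. Whether replicates are separate cultures is not stated. Depth is unknown, and no p-value was computed.

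RefSeq assembly GRCm38.p6 gave 21900 protein-coding records, of which the 20665 on autosomes were used, since the lists hold peaks on 19 autosomes only. Covered bp was counted over each record and 5 kb on each side, and within 1 kb of start sites. Start sites were listed for 16457 of these genes, and for the other 4208 either end of the record was used. The coverage code was checked on simulated intervals. The 9 genes, the lists of related genes and the markers were chosen with earlier results of these data known. Related genes were named where at least 50% of the window was covered in any list, at most 4 a group by summed percent, or the highest if none reached that. Rules also took the nearest neighbours, and the 3 nearest genes by coverage for those of the 9 with at least 10% in any list, without predicted genes. Some genes that these rules name are not reported here. Disp1, Sufu, Prkaca, Gpr161, Kif7, Boc and Gas1 were named after their values were seen. Alternatives were other windows, least overlaps and peak sets. Python 3.11.15, numpy 2.4.6 and pandas 2.3.3 were used.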

Additional observations from a re-analysis of the deposited data

How the results depend on the processing

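Coverage of Shh and Ihh was above that of the other 7 genes in all 18 combinations of 6 alternatives (0, 2 or 20 kb added to the record, peaks at least 1 kb wide, the 44807 widest peaks of each list, peaks under 3 kb apart joined) and 3 lists. In wider windows it was not. With 50 kb added, Hhip lay above Shh in line A (33.9% against 30.2%) and line B (41.4% against 33.5%), though not in NPC (9.50% against 15.2%). With 100 kb added, Hhip also lay above Ihh, in line A alone (51.5% against 40.0%). Counts of genes with a peak were within 1.5 times the reported ones in 39 of 48 alternatives. The number with a peak in the window (8 in NPC, 6 in line A, 8 in line B) came to 3 in NPC and 5 in line B, and 4 in line A, where at least 10% had to be covered, to 2 in each list at 50%, and to 3 in line A with 0 kb added. The number with a peak at a start site (6, 5 and 5) came to 3 in line A with peaks at least 1 kb wide and with the 44807 widest, and to 8 in line B within 5 kb. A higher bar and fewer peaks lower such counts by construction, and a wider window raises them. Apart from the 50% bar, the shares of all genes at these altered settings are not given here. Whether the counts at those settings lie above the shares of all genes is therefore unknown. Of 162 single-gene values, 89 left their 95% binomial interval, which treats bases as independent. At Hhip joining gave 11.6% in NPC, 4.05% in line A and 67.6% in line B. No paired analysis was possible because the lists hold no values per library, and for the same reason no replicate could be left out. A stricter peak threshold could not be set without peak scores. The lists differ in number of peaks and assay, and the part of this in the differences was not tested.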
